A study of Homo sapiens with 8 samples.

Results

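The genes described here handle iron in MIV-Luc cells, and ceruloplasmin (CP) leads them. The set held 10 genes chosen by symbol from the table of expression values, CP, HEPH, TF, TFRC, SLC40A1, SLC11A2, FTH1, FTL, LCN2 and LTF, and they were measured by 11 of the 29141 array features tested, because FTH1 had 2 features. The set was chosen with results of these same arrays in view, so the values of its members are a description without a test. MIV-Luc cells derive from MCF10CA1a, a metastatic human basal-like breast cancer line, and express luciferase. Every group carried the luciferase vector and a stably integrated pLKO hairpin. The 4 groups were cells with a scrambled hairpin (shSCR) and cells with a hairpin against IL13Rα2 (shIL13RA2 in the labels), each given either a mock treatment (- IL-13) or IL-13 (+ IL-13) at a dose of 20 ng/ml over 16 h. The knockdown rested on 1 hairpin in pooled, puromycin-selected cells, and the medium of all groups contained horse serum, insulin, EGF and hydrocortisone. Each group had 2 arrays, described as biological replicates, which are called A and B by column order.

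Iron enters most cells as ferric iron on transferrin, which binds the transferrin receptor at the cell surface and is taken up in endosomes. It leaves the endosome through the metal transporter SLC11A2 (DMT1), is stored in ferritin cages built from the FTH1 and FTL chains, and leaves the cell through ferroportin (SLC40A1), beside which the copper enzymes ceruloplasmin and hephaestin oxidize it so that transferrin can take it up again. Ceruloplasmin is best known as a plasma protein secreted by the liver in the acute-phase response, and is also made by epithelia. Lipocalin 2 (LCN2) and lactoferrin (LTF) are secreted by epithelia and neutrophils and withhold iron from bacteria.

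Values are log2 expression values made by the RMA method, on which a difference of 1 is a 2-fold change. Probes differ in brightness, so the amounts of RNA of different genes are not compared. Signals are only placed against the negative control features, and marker levels are summed within a class. The array medians lay between 5.02 and 5.06, and Pearson's r between arrays was 0.992 to 0.993 within groups and 0.988 to 0.993 between groups. IL13RA2, the target of the hairpin, read 8.07 and 8.09 in mock-treated shSCR cells and 9.36 and 9.33 with IL-13. In knockdown cells it read 6.52 and 6.34 without IL-13 and 8.23 and 8.15 with IL-13. The target was therefore lower in the knockdown at either treatment, by -1.65 (SE 0.11, limma adjusted p = 0.0105) and -1.16 (SE 0.11, limma adjusted p = 0.0241), but its level in IL-13-treated knockdown cells lay close to that of mock-treated control cells. The labelled epithelial origin was checked against marker genes. All 10 markers of basal or general epithelium lay above 75% of the negative control features, with ITGB4 lowest at 76.1%. Of the other classes, 0 of 6 leukocyte, 0 of 4 hepatocyte and 0 of 3 erythroid markers did. Of the fibroblast markers COL1A1 did (1 of 4), at 75.8%. Of the luminal markers GATA3 and FOXA1 did (2 of 4), and of the endothelial markers PECAM1 did (1 of 3).

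Promoter sequences from RefSeq (GRCh38.p14) were matched by symbol for 8 of the 10 members, in 16 windows of 250 bases before to 50 bases after a transcription start. CP and FTH1 had none. The 250 bases before the start are shown for LCN2, the member whose arrays were lower in every pairwise comparison, and for TFRC, the receptor that stood higher with IL-13. A stretch of 30 bases near the start of the FTL transcript is shown for the loop of its iron-responsive element, the RNA hairpin through which iron regulatory proteins control ferritin translation. LCN2 lies at chr9:128149203-128149452 on the plus strand, with capitals marking a match to the NF-kappaB site on the opposite strand, which starts 175 bases before the transcription start. TFRC lies at chr3:196082091-196082340 on the minus strand, with capitals marking the hypoxia response core ACGTG at 88 bases before the start. FTL lies at chr19:48965329-48965358 on the plus strand, with capitals marking the loop letters CAGTG.
LCN2: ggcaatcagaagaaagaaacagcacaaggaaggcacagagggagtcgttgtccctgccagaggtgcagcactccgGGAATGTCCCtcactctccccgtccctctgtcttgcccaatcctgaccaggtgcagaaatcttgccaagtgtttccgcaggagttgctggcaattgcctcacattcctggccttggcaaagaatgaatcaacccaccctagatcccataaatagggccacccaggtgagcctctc
TFRC: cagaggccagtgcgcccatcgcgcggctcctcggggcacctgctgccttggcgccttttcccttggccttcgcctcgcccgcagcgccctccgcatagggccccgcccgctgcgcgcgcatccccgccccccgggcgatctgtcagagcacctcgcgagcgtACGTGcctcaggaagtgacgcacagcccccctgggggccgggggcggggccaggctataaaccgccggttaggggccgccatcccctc
FTL: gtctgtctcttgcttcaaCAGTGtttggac

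Letters of 5 motifs were searched in the member windows, on both strands except for the loop. The STAT6-type site, TTC and GAA with 4 bases between them, was in 0 of the 16 member windows and in 6.44% of all 35116 promoter windows. The shorter STAT site, with 3 bases between them, was in 1 member window, of LTF, against 7.66% of all windows. The NF-kappaB site was in 2 member windows, of LCN2 and SLC11A2, against 11.3%, and ACGTG in 4, of FTL, LTF, TF and TFRC, against 21.4%. CAGTG on the coding strand was in 6 member windows of 5 genes, against 32.2%. In FTL it lay 38 bases after the start. In the windows of HEPH, LTF, TF and TFRC it lay before the start, outside the RNA made from that start. These matches describe the letters in the windows and no binding was measured.

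The ferroxidases came first. CP was lower with IL-13 in both cell lines and higher in knockdown cells at either treatment. The arrays of mock-treated shSCR cells read 8.01 and 8.35, and those with IL-13 read 7.48 and 7.58. In the knockdown the mock-treated arrays read 8.80 and 8.70, and those with IL-13 read 7.82 and 7.78. None of the 4 groups overlapped with another in CP, and the order from high to low was mock-treated knockdown, mock-treated shSCR, IL-13-treated knockdown and IL-13-treated shSCR cells. The CP difference with IL-13 was -0.65 in shSCR cells (SE 0.13, 95% interval -0.96 to -0.34), which is 1.57-fold lower. In such bulk RNA, fewer cells that express a gene and less of its RNA per cell cannot be told apart. In knockdown cells it was -0.95 (SE 0.13, interval -1.26 to -0.64), or 1.93-fold lower. The knockdown stood against these values with a difference of 0.57 without IL-13 (interval 0.26 to 0.88, 1.48-fold higher) and 0.27 with IL-13 (interval -0.04 to 0.58). Relative to mock-treated shSCR cells, knockdown cells with IL-13 were lower by a CP difference of -0.38 (interval -0.69 to -0.07), so IL-13 and the knockdown lay in opposite directions for this gene. The CP response to IL-13 differed between the lines by -0.30, with an interval of -0.73 to 0.14 that includes 0, and by -0.13 and -0.46 without shSCR (- IL-13) array A or B. Much of the imprecision came from the control arrays, since without shSCR (- IL-13) array A the CP difference with IL-13 in shSCR cells was -0.82 and without array B it was -0.48. With the same arrays left out, the difference between both treatments together and the control was -0.55 without array A and -0.21 without array B, and the knockdown difference without IL-13 was 0.40 and 0.74. Between groups that do not overlap, leaving out a single array cannot change the sign of a pairwise difference. The signs are therefore no check of stability.

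A marker of another cell type stood beside CP. PECAM1, an adhesion molecule of endothelial cells and leukocytes, read 8.33 and 8.08 in mock-treated shSCR cells and 7.71 and 7.83 with IL-13, then 8.82 and 8.82 in mock-treated knockdown cells and 8.14 and 8.27 with IL-13. The summed level of the 3 endothelial markers (log2 of the sum) ranged from 8.26 to 8.49, 7.95 to 8.04, 8.94 to 8.95 and 8.32 to 8.43 in the same order of groups. The sum is of unlogged levels, so it mostly repeats PECAM1, by far the brightest of the 3. Endothelial identity genes were dim, with the von Willebrand factor gene VWF between 3.65 and 4.07 and the cadherin CDH5 between 4.40 and 4.83 on all arrays, above 44% and 55.8% of the negative control features. Their part in the CP result was not tested. The hepatocyte markers ALB, APOA1, APOB and TTR, from the tissue that secretes CP, were all below the 75% mark, and their summed level stayed between 6.57 and 6.66 on all 8 arrays.

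HEPH, the membrane-bound relative of ceruloplasmin, was measured at low signal, above 65.4% of the negative control features. Its arrays read 5.11 and 5.27 in mock-treated shSCR cells and 5.37 and 5.42 with IL-13, and in the knockdown 5.21 and 5.65 without and 5.04 and 4.74 with IL-13. With IL-13 HEPH was thus higher in shSCR cells by 0.21 (interval -0.19 to 0.60) and lower in knockdown cells, with a difference of -0.54 (interval -0.93 to -0.14), and the arrays overlapped in neither line. The knockdown difference was 0.24 without IL-13, where the groups overlapped, and -0.50 with IL-13. HEPH and CP therefore lay on the same side in knockdown cells treated with IL-13 and on opposite sides in shSCR cells. The IL-13 difference in knockdown cells was -0.32 without the mock-treated knockdown array B and -0.76 without array A, so its size rested on these arrays. In shSCR cells the difference was 0.13 without the mock-treated array A and 0.28 without array B, and the knockdown difference without IL-13 was 0.02 without the mock-treated knockdown array B and 0.46 without array A.

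Of the iron carriers and their receptor, TFRC stood higher with IL-13 and the carriers were close to background. TFRC, which encodes transferrin receptor 1, read 10.25 and 10.41 in mock-treated shSCR cells and 10.55 and 10.84 with IL-13. In knockdown cells it read 10.35 and 10.28 without and 10.52 and 10.52 with IL-13. The TFRC difference was 0.37 in shSCR cells (SE 0.13, interval 0.07 to 0.67, 1.29-fold higher) and 0.21 in knockdown cells (interval -0.09 to 0.51), without overlap in either. The former was 0.22 without shSCR (+ IL-13) array B and 0.52 without array A. Between the mock-treated groups the difference was -0.01 and the arrays overlapped, so the neighbours at the low end of the TFRC order did not differ beyond their spread. TF, the gene of transferrin, lay above only 32.3% of the negative control features, with arrays between 2.70 and 3.55 and overlapping groups in every pairwise comparison. LTF lay above 55.3% of them. It read 4.29 and 4.46 in mock-treated shSCR cells against 4.83 and 4.48 with IL-13 (difference 0.29, interval -0.04 to 0.62, 0.11 without the IL-13 array A and 0.46 without array B), and in knockdown cells 4.45 and 4.58 against 4.56 and 4.51 (difference 0.02). At these signals a small difference in transcript may not be detectable.

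The transporters differed little between groups. SLC40A1, the only known iron exporter, lay above 35% of the negative control features, and its arrays stayed between 3.16 and 3.58 with overlapping groups in all 5 pairwise comparisons. SLC11A2, which moves ferrous iron out of endosomes, was measured at a higher signal (above 83%). It read 6.94 and 6.89 in mock-treated shSCR cells, 7.13 and 6.85 with IL-13, 6.95 and 6.96 in mock-treated knockdown cells and 7.16 and 7.06 in knockdown cells with IL-13. The highest group was the knockdown with IL-13, 0.19 above mock-treated shSCR cells (interval -0.09 to 0.48), and its arrays overlapped only with those of IL-13-treated shSCR cells.

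Of the ferritin chains, the group means spanned 0.49 log2 units for FTL and 0.26 and 0.08 for the FTH1 features. FTL, the light chain that promotes iron mineralization, was highest in mock-treated shSCR cells at 7.23 and 7.14. It read 6.92 and 6.57 with IL-13, 6.66 and 6.97 in mock-treated knockdown cells and 6.67 and 6.71 in knockdown cells with IL-13. The last 3 groups overlapped, whereas each of them lay below the mock-treated shSCR arrays, with FTL differences of -0.44 (interval -0.80 to -0.08), -0.37 (interval -0.73 to -0.01) and -0.49 (interval -0.85 to -0.13). Without shSCR (+ IL-13) array A the first of these was -0.62 and without array B it was -0.26, and without the mock-treated knockdown array A the second was -0.21 and without array B it was -0.52. FTH1, the heavy chain with ferroxidase activity, was read by a pair of features. In feature 7948656 the mock-treated shSCR arrays lay above those of the other 3 groups without overlap, as for FTL. It was lower in knockdown cells without IL-13, at 10.03 and 10.18 against 10.37 and 10.36 (difference -0.26, interval -0.50 to -0.01), and with IL-13 it read 10.26 and 10.31 in shSCR cells and 10.16 and 10.20 in knockdown cells. Feature 8170360 stayed between 12.81 and 13.03, and its pairwise differences ran from -0.08 to 0.00. Both ferritin genes have many processed pseudogenes in the human genome, so probes of these features may share signal with such copies.

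LCN2, which binds iron-loaded bacterial siderophores and is a marker of epithelial inflammation, was lower with IL-13 and lower in the knockdown. Its arrays read 7.69 and 7.58 in mock-treated shSCR cells and 7.48 and 7.48 with IL-13. In the knockdown they read 7.33 and 7.41 without and 7.02 and 6.86 with IL-13. None of the groups overlapped, and the order ran from mock-treated shSCR cells through IL-13-treated shSCR and mock-treated knockdown cells to IL-13-treated knockdown cells. The LCN2 difference with IL-13 was -0.16 in shSCR cells (SE 0.11, interval -0.41 to 0.10) and -0.43 in knockdown cells (interval -0.68 to -0.17). The former was -0.10 without shSCR (- IL-13) array A and -0.21 without array B. The knockdown difference was -0.26 without IL-13 (interval -0.52 to -0.01) and -0.53 with IL-13 (interval -0.79 to -0.28). Against mock-treated shSCR cells the knockdown with IL-13 stood at -0.69 (interval -0.95 to -0.44), or 1.61-fold lower. LCN2 and CP are both acute-phase genes, yet the knockdown difference was negative for LCN2 and positive for CP at either treatment.

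**Figure D1:**
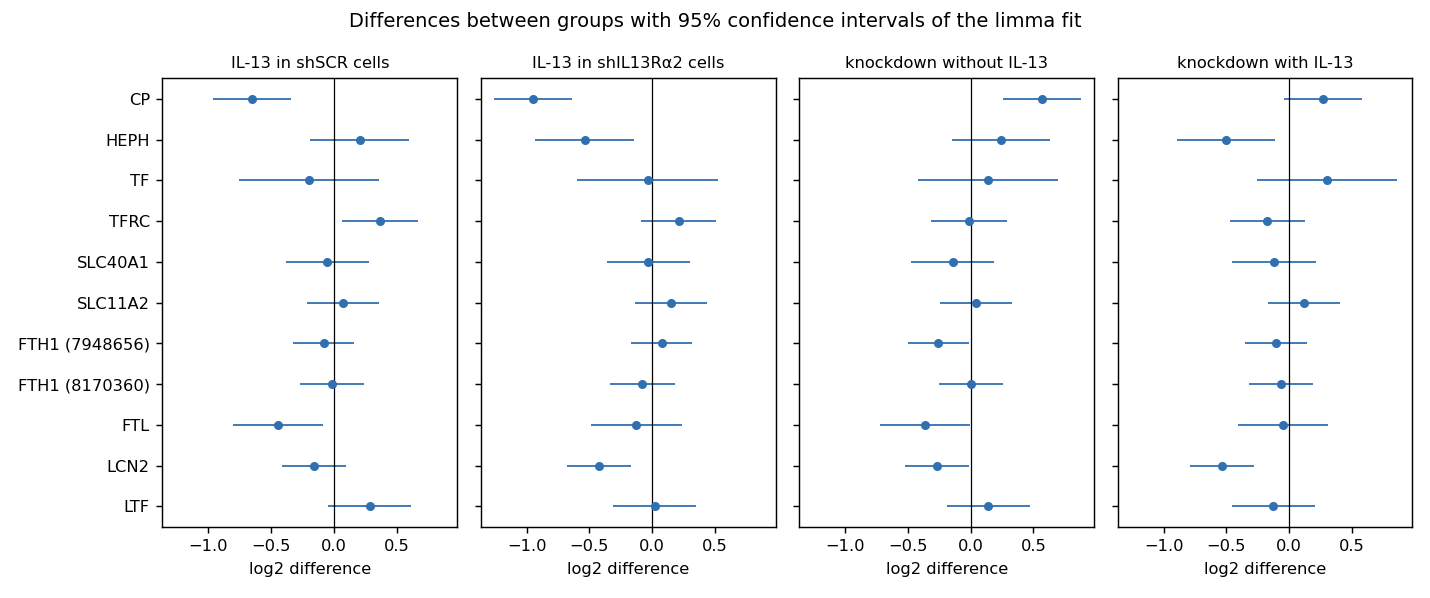
Log2 differences between groups (horizontal axis, points) with 95% confidence intervals (bars) for the 11 features (vertical axis) in 4 pairwise comparisons. The CP intervals lie below 0 for IL-13 in both lines, at -0.96 to -0.34 and -1.26 to -0.64, and most other intervals are within 1 unit of 0.

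The pairwise comparisons share arrays and are not independent of each other. A feature was called at a limma adjusted p (Benjamini-Hochberg over all features) under 0.05 with a fold change over 2. Among all 29141 features this called 0.0583% for IL-13 in shSCR cells, 0.0618% for IL-13 in knockdown cells, 0.0652% for the knockdown without IL-13, 0.0515% for the knockdown with IL-13 and 0.154% for the knockdown and IL-13 together against mock-treated shSCR cells. Of the 11 member features, 0 were called by limma in any of these, and the methods' test with adjustment also called 0. Averaged over both constructs the IL-13 comparison called 0.0927% of features, and averaged over both treatments the knockdown comparison called 0.0755%, again with 0 members. With the adjusted p alone these averaged comparisons took 0.233% and 0.446% of features, with 1 and 0 members among them. The CP difference averaged over both constructs was -0.80 (interval -1.02 to -0.58, 1.74-fold lower). At an unadjusted p under 0.05 the members numbered 3, 3, 4, 2 and 3 of 11 in the 5 pairwise comparisons, where 6.79%, 6.93%, 9.51%, 7.07% and 9.56% of all features passed. They numbered 4 and 3 in the averaged comparisons, where 8.73% and 11.3% passed, and 1 in the interaction, where 4.47% passed. Arrays of the compared groups did not overlap for 7, 5, 5, 5 and 8 member features, against 36.7%, 37.4%, 41.2%, 36.4% and 40.3% of all features. The members were chosen on these arrays, so nothing is read from these counts. Their median difference was -0.05, -0.04, 0.00, -0.11 and -0.17 in the same order, beside 0.00, 0.02, -0.01, 0.00 and 0.01 over all features.

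Other iron genes were examined as lists that held no member. These lists, like the later ones, were chosen with earlier results of these data known. Of 34 genes of iron uptake, export and recycling, measured by 35 features, limma called 0 in every comparison and the methods' test with adjustment also 0. At an unadjusted p under 0.05, 3, 5, 3, 2 and 2 features passed in the 5 pairwise comparisons. Of all features 6.79%, 6.93%, 9.51%, 7.07% and 9.56% passed. The median difference of the list was highest, at 0.06, for the knockdown and IL-13 together. CYBRD1, a gene of this list picked after the data were seen, had the signs of CP in all 5 pairwise comparisons, without overlap. These comparisons share the arrays of 4 groups, and how many other features had this pattern was not counted. It differed by -0.36 and -0.61 with IL-13 in shSCR and knockdown cells (limma adjusted p = 0.694 and 0.39). Its knockdown differences were 0.42 without and 0.18 with IL-13 (limma adjusted p = 0.415 and 0.857). Over both constructs, 24 features of the list were higher with IL-13 and 11 lower. In the lists described below, 14 were higher and 18 lower for iron storage, sensing and mitochondrial iron. For copper handling 9 were higher and 23 lower, and for acute-phase and host-defence genes 18 and 23. The share of all features on each side was not counted, so these tallies are only a description. SLC39A8 (ZIP8), a zinc and iron importer, had arrays of 9.41 and 9.64 in mock-treated shSCR cells, 9.98 and 9.96 with IL-13, 9.72 and 9.82 in mock-treated knockdown cells and 10.09 and 10.15 in knockdown cells with IL-13. Its 4 groups did not overlap. Its difference with IL-13 was 0.44 in shSCR cells (SE 0.12, limma adjusted p = 0.489) and 0.35 in knockdown cells (limma adjusted p = 0.624). NEO1 (neogenin), a partner of the iron-sensing coreceptor hemojuvelin, stood 0.49 higher in mock-treated knockdown cells (SE 0.13, limma adjusted p = 0.325). HP, the haemoglobin-binding haptoglobin, differed by 0.62 with IL-13 in knockdown cells (limma adjusted p = 0.667), at a signal of only 2.41 to 3.47, and SMAD1, a transducer of the BMP signal that controls hepcidin, by 0.38 between the lines with IL-13 (limma adjusted p = 0.6).

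Among 30 genes of iron storage, iron sensing and mitochondrial iron, with 32 features, limma again called 0 in every comparison, as did the methods' test with adjustment. Unadjusted, 2, 2, 5, 2 and 5 features passed in the pairwise comparisons, against 6.79%, 6.93%, 9.51%, 7.07% and 9.56% of all features. BLVRA, biliverdin reductase of the haem breakdown pathway, read 7.87 and 7.79 in mock-treated shSCR cells against 7.24 and 7.39 in mock-treated knockdown cells (difference -0.52, SE 0.15, limma adjusted p = 0.382). With IL-13 the knockdown difference of BLVRA was -0.39 (limma adjusted p = 0.66), also without overlap. ALAS2, the erythroid enzyme of haem synthesis, differed by -0.47 with IL-13 in shSCR cells (limma adjusted p = 0.603). FTMT, mitochondrial ferritin, differed by 0.57 with IL-13 in knockdown cells (limma adjusted p = 0.464), and both were dim.

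Ceruloplasmin carries copper, so 27 copper handling genes with 32 features were examined. Limma and the methods' test with adjustment called 0 of them in every comparison. In the pairwise comparisons 6, 1, 5, 2 and 6 features passed unadjusted, against 6.79%, 6.93%, 9.51%, 7.07% and 9.56% of all features. LOX, the copper-dependent lysyl oxidase that crosslinks collagen, read 7.19 and 7.25 in mock-treated shSCR cells, 7.70 and 7.58 with IL-13, 7.40 and 7.61 in mock-treated knockdown cells and 7.89 and 7.88 in knockdown cells with IL-13. Relative to mock-treated shSCR cells the LOX difference in the latter was 0.66 (SE 0.11, limma adjusted p = 0.0892). MT1X, a metallothionein that binds copper and zinc, read 8.62 and 8.49 in IL-13-treated shSCR cells against 9.04 and 9.14 in IL-13-treated knockdown cells (difference 0.54, SE 0.12, limma adjusted p = 0.335). Metallothionein genes are near-identical, so this signal may be shared. COX17, the copper chaperone of cytochrome oxidase, differed by -0.40 between mock-treated lines (limma adjusted p = 0.406), and COX11, another such assembly factor, by -0.40 with IL-13 in knockdown cells (limma adjusted p = 0.777). Both genes had a second feature. It gave -0.03 for COX11 with overlapping arrays (limma adjusted p = 0.974) and -0.36 for COX17 without overlap (limma adjusted p = 0.435). Whether either feature of COX11 or COX17 reads a related copy of the gene was not checked.

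CP, LCN2 and LTF are also secreted defence proteins, so 36 other acute-phase and host-defence genes with 41 features were examined. Limma called 2 of the 41 for the knockdown and IL-13 together, where 0.154% of all features were called, and 0 in the other pairwise comparisons. This list too was chosen with earlier results of these data known, so its counts are a description and no enrichment is read from them. In those, 4, 7, 7 and 7 features passed unadjusted, against 6.79%, 6.93%, 9.51% and 7.07% of all features. For the knockdown and IL-13 together 11 passed, against 9.56%. SERPINA1, which encodes alpha-1 antitrypsin, a plasma protease inhibitor of the acute phase, read 6.86 and 6.35 in mock-treated shSCR cells, 6.24 and 6.26 with IL-13, 5.48 and 5.51 in mock-treated knockdown cells and 5.33 and 5.45 in knockdown cells with IL-13. Its difference between the last and the first group was -1.21 (SE 0.16, limma adjusted p = 0.0357), and its knockdown difference without IL-13 was -1.11 (SE 0.16, limma adjusted p = 0.106), which is past 2-fold but not past the adjusted threshold. SERPINA1 fell in the knockdown averaged over both treatments by 0.98 (limma adjusted p = 0.0191). CXCL1, a neutrophil chemokine, rose, reading 8.13 and 8.10 in mock-treated shSCR cells and 9.16 and 9.10 in knockdown cells with IL-13 (difference 1.02, SE 0.13, limma adjusted p = 0.0349). For CXCL1 the differences were 0.49 with IL-13 in shSCR cells and 0.53 for the knockdown without IL-13, so both single comparisons lay on the same side, whereas those of CP lay on opposite sides. Leaving out any single array ended the CXCL1 call, and any array but shSCR (- IL-13) array B ended the SERPINA1 call for both treatments together. The SERPINA1 difference was -0.96 without shSCR (- IL-13) array A.

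**Figure D2:**
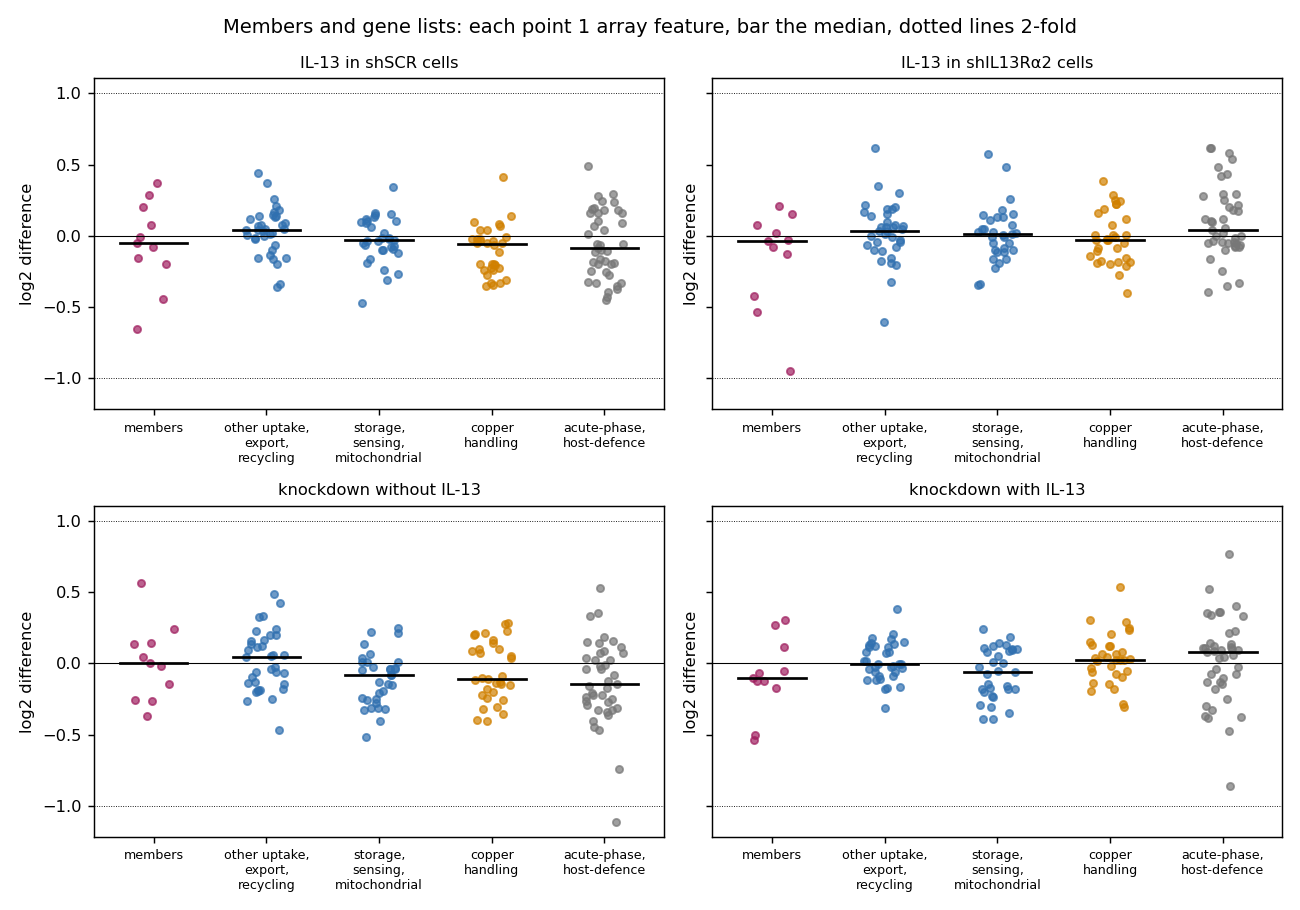
Log2 differences (vertical axis) of the 11 member features and of the features of 4 gene lists (horizontal axis) in 4 pairwise comparisons, 1 point per feature with the median as a bar and dotted lines at a 2-fold change. Within the members CP is the lowest point for IL-13 in both lines, at -0.65 and -0.95, and the list medians lie near 0.

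The genes most like CP were taken from the 139 features with a single gene symbol and group means that spanned at least 1 log2 unit (CP itself spanned 1.22), ranked by Pearson's r with CP over the 8 arrays. These correlations are a description over 8 arrays of 4 shared groups. The highest were CD24, a surface glycoprotein of epithelial cells (r = 0.98), AGR2, a protein disulfide isomerase of mucus-secreting cells (r = 0.98), SLITRK6, a transmembrane protein (r = 0.97), SYTL2, a factor of vesicle transport (r = 0.95), and CEACAM6, an adhesion molecule (r = 0.95). AGR2 had group means of 7.21 and 5.97 in shSCR cells without and with IL-13, and of 7.74 and 6.40 in knockdown cells. It showed the CP order of groups over a wider range. CEACAM6 had means of 6.95 and 5.92, then 7.45 and 6.24. The lowest correlations were those of TNS4, a focal adhesion protein (r = -0.98), IL7R, the interleukin-7 receptor (r = -0.97), IL13RA2 itself (r = -0.94), SEMA3A, a secreted guidance factor (r = -0.93), and TNFAIP6, a hyaluronan-binding protein (r = -0.92). TNS4 had means of 7.40 and 8.29 in shSCR cells and 6.84 and 7.75 in knockdown cells, the mirror image of CP. Among the other members the correlation with CP was -0.71 for TFRC and between -0.45 and 0.42 for the rest. Of the endothelial markers, PECAM1 had an r of 0.89, CDH5 of 0.66 and VWF of 0.04.

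**Figure D3:**
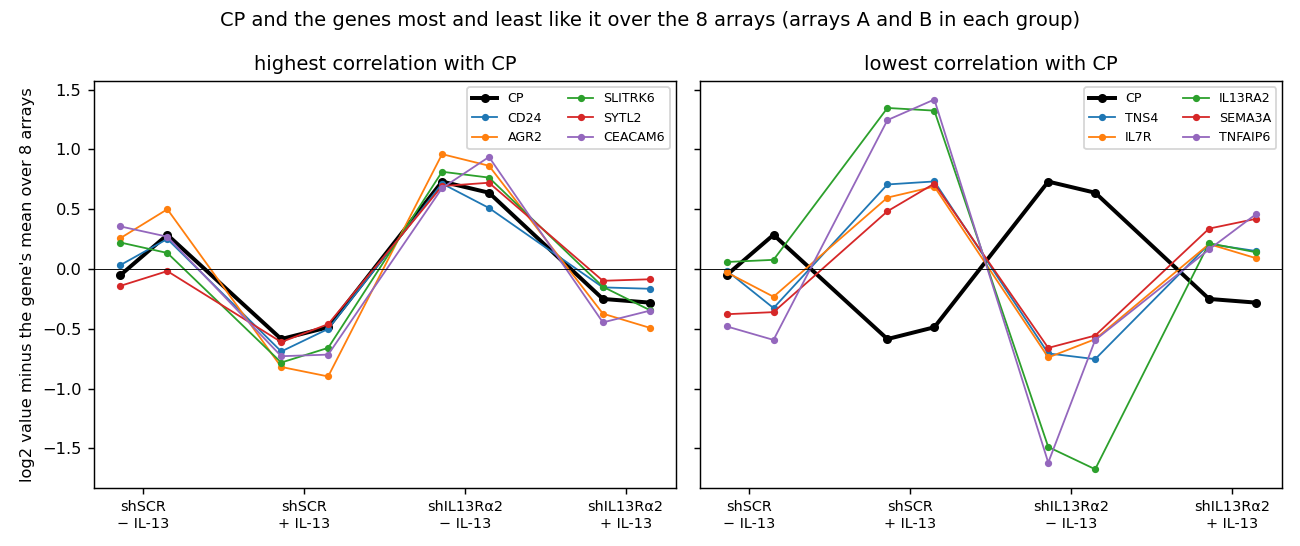
Log2 value minus each gene's mean over the 8 arrays (vertical axis) for CP (black) and the 5 genes with the highest (left) and the lowest (right) Pearson's r with CP, by array A and B of each group (horizontal axis); lines only join points. CD24 follows CP with r = 0.98, and TNS4 runs opposite with r = -0.98.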

How the data were processed

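RNA of 8 samples was hybridized to Affymetrix GeneChip arrays. The deposited log2 values, 1 per gene-level feature and array, were made by the authors by RMA in Affymetrix Expression Console version 1 (background correction, quantile normalization over arrays, probe summary), so differences between arrays in overall signal were already removed. They were used without another normalization. Each column was placed in a group by its construct and treatment. Of 33297 features, 4156 controls were left out and 29141 tested without a filter on signal, of which 7064 carried no symbol. A model of the group means over all 8 arrays (limma 3.58.1, R 4.3.3) gave the differences and their 95% intervals, and a feature was called where the Benjamini-Hochberg adjusted p was under 0.05 and the fold change over 2. The procedure was tested on simulated data. The methods' test was a one-way analysis of variance on the 4 arrays compared. Alternatives changed the test, the fold threshold, the filter on dim features, the scaling and the arrays included. Precision was limited by having 2 arrays per group.

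The members and lists were chosen with earlier results of these data known. The lists were written from general knowledge. Of the symbols searched, 131 were current and 4 older (HFE2, MFI2, PLUNC and IL8), and HP and HPX were in 2 lists. Named genes were all members, IL13RA2, list genes with an adjusted p under 0.05, and in each list the gene with the largest difference without overlapping arrays in each of 4 pairwise comparisons. Comparisons averaged over constructs or treatments, the endothelial values and the CYBRD1 values were added after the data were seen.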

Additional observations from a re-analysis of the deposited data

Results flagged for a closer look

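Among the members and named list genes, HEPH and the copper chaperone gene COX17 were flagged by 1 rule. Their arrays with IL-13 lay above those without it in one line and below them in the other, without overlap. Absence of overlap held for 36.7% of all features for IL-13 in shSCR cells and for 37.4% in knockdown cells. The share of all features on opposite sides was not counted, so the pattern is only a description. For HEPH the IL-13 difference in knockdown cells minus that in shSCR cells was -0.7428 on the log2 scale (95% interval -1.30 to -0.19), given as a description because HEPH belongs to the set chosen on these arrays. For COX17 the same quantity was 0.4254, from -0.20 in shSCR cells and 0.23 in knockdown cells, with a limma adjusted p of 0.989 for the interaction (unadjusted p = 0.0466), so the difference between lines did not pass the correction. COX17 read 9.77 and 9.58 in mock-treated shSCR cells, 9.56 and 9.39 with IL-13, 9.17 and 9.38 in mock-treated knockdown cells and 9.50 and 9.49 in knockdown cells with IL-13. Its second feature, also without overlap, gave -0.24 in shSCR cells and 0.16 in knockdown cells. Whether that feature reads COX17 itself or a related copy was not checked.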

How the results depend on the processing

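No paired analysis was possible because the column headings carry no replicate numbers. Of the counts of calls under the alternatives, 490 were equal to or within 1.5 times their main value and 18 were not. All main counts were 0 except the 2 acute-phase and host-defence calls described below. Nearly all of the 490 were therefore counts of 0 that stayed at 0. The count of member features called for IL-13 over both constructs went from 0 to 1 (CP) with no fold change threshold or a fold change over 1.5. The 2 acute-phase and host-defence calls for the knockdown and IL-13 together became 0 with limma on the 4 arrays compared and with the methods' test with adjustment, and 0 to 1 when each array was left out in turn, 1 remaining without shSCR (- IL-13) array B. For the knockdown over both treatments that list went from 0 calls to 1 (SERPINA1) with no fold change threshold, with a fold change over 1.5 or, among single arrays left out (0 to 1), without shSCR (- IL-13) array B. For the knockdown without IL-13 it went from 0 to 1 (SERPINA1) with an intensity trend and robust prior, with limma without adjustment and with the methods' test without adjustment. Of the member differences, 1548 differed from their main value by less than the spread between arrays, and 1 did not. That was SLC11A2 for the knockdown without IL-13, 0.08 after a further quantile normalization. Most alternatives left the differences of group means unchanged. Leaving out an array could not move them past this spread either, so the count is no measure of stability. Of the values of the named list genes, 1612 kept their side of the call threshold, 19 lost the call and 6 gained it. Direction was compared only for values called in the main fit, of which 0 were reversed. Most of these values were not called there, and their direction was not compared. With 2 arrays a group, and with TF, SLC40A1, LTF and HEPH at low signal, small differences in these genes may not be detectable.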
